A study of Homo sapiens with 4 samples.

Results

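Mucins are large glycoproteins of epithelial surfaces, and 8 of their genes were followed here: the secreted MUC5AC and MUC5B and the membrane-bound MUC1, MUC4, MUC13, MUC15, MUC16 and MUC20. They were taken by gene symbol from the 34675 genes of the authors' deposited table, and were chosen by a reading of its fold and adjusted p-value columns, so their values are given as a description. The cells were MDA-MB-231, an established triple-negative breast carcinoma line from a pleural effusion, carried as stable lines with either the plasmid pcDNA-Vector or pcDNA-FLAG-LKB1 wildtype, which adds a tagged copy of the kinase LKB1 (gene STK11). Each line gave 2 libraries of total RNA from cells grown on plastic in DMEM with serum, and the labels do not say whether a line is 1 clone or whether its libraries came from separate cultures. The titles mark the LKB1 libraries as fmRNA and the vector libraries as mRNA, so the lines and this difference cannot be told apart.

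When the samples were checked for mix-ups, the named cell line was not matched by at least 1 of the 2 groups. The check was a yes or no flag from a difference between the groups and did not count groups. Every difference below is a difference between these libraries as labelled. The table gives 1 fold per gene and names no direction. STK11 set the reading as LKB1 over vector, with 1321 vector reads and 2112 LKB1 reads (log2 0.62, and an adjusted p of 0.00105 as deposited by the authors). An assumed coefficient of variation of 0.2 for all genes ended that call (adjusted p = 0.449), and FLAG-LKB1 and endogenous reads cannot be separated. Read totals per line were recovered from the fold column and are sums of 2 libraries, with no value for either library alone, and p-values reflect only a spread between libraries that may be technical. A depth ratio of 1.04, LKB1 over vector, was inferred from the fold column, and the library totals themselves are unknown. All 12 markers fixed for a mesenchymal-like breast carcinoma line had at least 40 reads or were taken to have them. No read total could be recovered for 7 of the 12, among them VIM, CD44 and AXL, and these were taken as above that minimum. The same held for 9 of 11 luminal and epithelial markers, 2 of them without a recovered total. Among these were CDH1 with 431 vector and 278 LKB1 reads and KRT19 with 2948 and 2792. Below the minimum were the hormone receptor genes ESR1 with 8 and 12 reads and PGR with 4 and 0. VIM, CD44, AXL, CDH1, KRT19, ESR1 and PGR were named after their values were seen.

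A mucin carries long stretches in which serine and threonine follow one another within a tandem repeat, and sugars are attached to these residues. Secreted gel-forming mucins such as MUC5AC and MUC5B are made by goblet and glandular cells of airway, stomach and cervix and give mucus its gel. Membrane mucins are anchored at the apical surface, shed an outer part and signal through a short tail, and in carcinoma they are often spread over the whole cell surface. MUC1 binds beta-catenin through its tail, MUC4 pairs with the receptor ERBB2, MUC16 carries the CA125 antigen and binds mesothelin, and MUC20 binds the receptor MET.

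The coding repeats show what makes these genes mucins and why short reads from them are hard to place. For the 5 members that repeat with a period of 12 to 150 bases, the most frequent in-frame unit of the longest GENCODE 29 coding transcript is given 5′ to 3′, with the codons for serine and threonine in capitals.
MUC1: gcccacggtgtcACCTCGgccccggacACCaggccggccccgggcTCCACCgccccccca
MUC4: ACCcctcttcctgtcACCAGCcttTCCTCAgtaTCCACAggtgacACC
MUC5AC: ACCAGCACAACCTCTgctcctACA
MUC5B: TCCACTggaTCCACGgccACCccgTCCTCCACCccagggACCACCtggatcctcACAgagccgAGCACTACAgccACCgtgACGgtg
MUC20: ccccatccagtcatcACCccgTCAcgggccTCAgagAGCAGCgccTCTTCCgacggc
The MUC4 unit of 48 bases had 189 copies at 80% identity or more, and 8 of its 16 codons stand for serine or threonine. The MUC5AC unit of 24 bases had 167 copies, with 6 of 8 such codons. The MUC1 unit of 60 bases had 43 copies, and the MUC20 unit of 57 bases had 11. The MUC5B unit of 87 bases had 6 copies but the most such codons, 16 of 29. Serine and threonine codons made up 38.3% of the MUC4 coding sequence, 36.0% of that of MUC16 and 35.2% of that of MUC5AC, against a median of 12.9% over 19547 genes. The lowest share among the members was 23.4%, in MUC15, which was still above 99.2% of genes.

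Of 50-base windows along the transcript, 42.4% of MUC1, 29.2% of MUC5B, 28.3% of MUC4 and 21.4% of MUC5AC occurred more than once within the same transcript. No window of MUC1 or MUC4 was found in another gene, and MUC5AC and MUC5B shared 66 windows (0.379% and 0.369%) with each other. MUC20 was the exception, with 69.1% of its windows also present in the related transcripts MUC20-OT1 or MUC20P1, so its read total is uncertain. How reads with several matches were counted is not given in the sources used here.

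**Figure D1:**
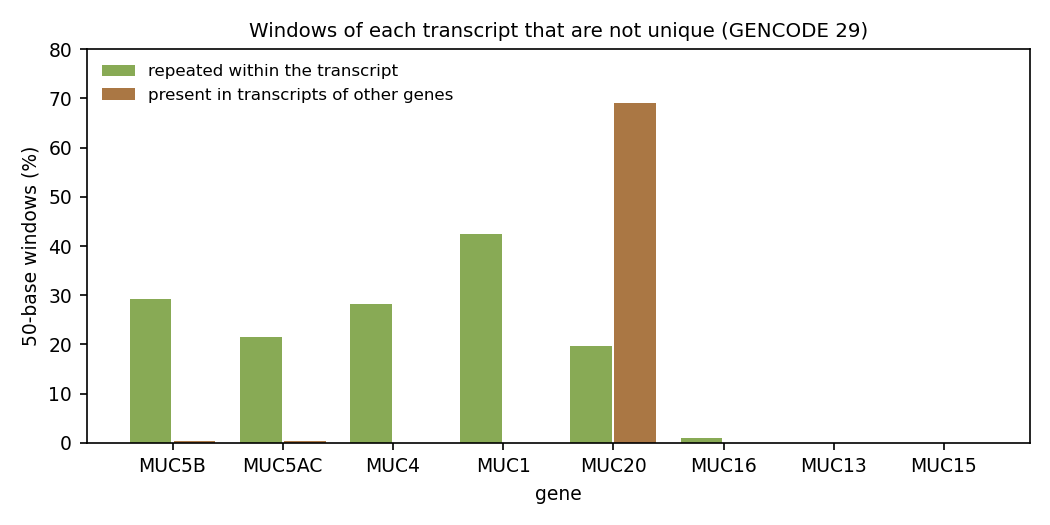
Share of 50-base windows (vertical axis, percent) of the longest GENCODE 29 coding transcript of each mucin gene (horizontal axis) that recur within that transcript (green) or occur in transcripts of other genes (brown). MUC1 has the tallest green bar at 42.4%, and MUC20 stands alone with a brown bar of 69.1%.

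The secreted members MUC5AC and MUC5B were read in the vector line and not in the LKB1 line. Of the membrane members, MUC4 and MUC1 were higher in the LKB1 line and MUC20 was nearly level. Of the 8 genes 2 rose, 2 fell and 4 did not pass an adjusted p of 0.05 in the authors' deposited table, in which 5.79% of all genes passed, 2.55% higher and 3.24% lower. The members were chosen with this comparison known, so nothing is read from their count beside that share. At least 40 reads over the 4 libraries were present for 5 of the 8 genes, and this is the minimum used for lists and neighbours below. The other 3 members had fewer than 10. Listed genes and neighbours with no recovered read total were taken as above the minimum. Summed over the 8 genes, with no correction for length, there were 468 vector reads and 534 LKB1 reads. MUC20, whose total is uncertain, gave 40.2% of the vector sum and 32.2% of the LKB1 sum. MUC4 gave 8.76% and 47.4%, and MUC5B gave 26.1% and 0%. Fewer cells that express a gene and less RNA per cell cannot be told apart in such bulk libraries.

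**Figure D2:**
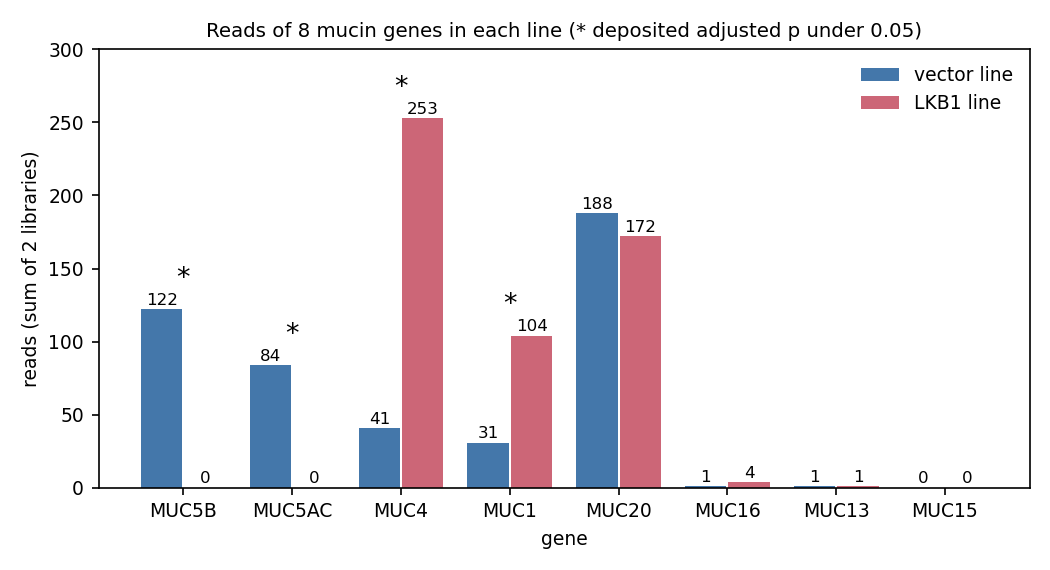
Reads (vertical axis, sum of the 2 libraries of a line) of each mucin gene (horizontal axis) in the vector line (blue) and the LKB1 line (red), with the total printed on each bar and an asterisk where the deposited adjusted p was under 0.05. MUC5B and MUC5AC have bars in the vector line only, MUC4 and MUC1 are taller in the LKB1 line, and the bars of MUC20 are nearly level.

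MUC5B (ENSG00000117983.13, chromosome 11, 1244296 to 1283406, plus strand, hg19), the main gel-forming mucin of submucosal glands, was covered by 122 vector reads and 0 LKB1 reads. Its bound takes the 122 vector reads as exact and 3 reads over the group as the limit that a count of 0 allows. On these terms MUC5B was at least 42.3-fold lower in the LKB1 line. Its adjusted p was 2.7e-19 in the authors' deposited table. Its neighbour MUC5AC (ENSG00000215182.6, chromosome 11, 1151580 to 1222364, plus strand), the mucin of goblet and gastric surface cells, was covered by 84 vector reads and 0 LKB1 reads. It was at least 29.1-fold lower, with an adjusted p of 6.07e-16 in the authors' deposited table. The deposited log2 folds of these genes, -8.96 and -8.42, depend on the small prior count the fold contains and are not used as sizes. Among protein-coding genes without a read in the LKB1 line, MUC5B had the most vector reads and MUC5AC the third most, with MAGEA6, a gene of the melanoma antigen family, between them at 106. An antisense gene that overlaps MUC5B was unread, with 0 reads in both lines.

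MUC4 (ENSG00000145113.17, chromosome 3, 195473636 to 195539148, minus strand) rose from 41 vector reads to 253 LKB1 reads. The deposited fold was 5.91 (log2 2.56, with an adjusted p of 1.35e-13 from the authors' deposited table), and the ratio of the read totals was 5.94 with an exact 95% counting interval of 4.25 to 8.47. By fold it ranked 16 among the 737 protein-coding genes with at least 40 reads that were called higher. MUC1 (ENSG00000185499.11, chromosome 1, 155158300 to 155162707, minus strand) rose from 31 to 104 reads. Its deposited fold was 3.21 (log2 1.68, adjusted p = 2.32e-05 in the authors' deposited table), and its read ratio was 3.23 with a counting interval of 2.14 to 4.99, which overlaps that of MUC4. With a variation of 0.4 between libraries assumed for every gene, the call of MUC1 was lost (adjusted p = 0.532) and that of MUC4 was kept (adjusted p = 0.0139). MUC1 overlaps KRTCAP2 on the same strand, a gene with 466 and 541 reads and a log2 fold of 0.16 (adjusted p = 1 in the authors' deposited table). All such intervals cover counting error only.

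MUC20 (ENSG00000176945.11, chromosome 3, 195343316 to 195467994, plus strand) was covered by 188 vector reads and 172 LKB1 reads. The read ratio was 0.880 with a counting interval of 0.711 to 1.09, and the adjusted p was 1 in the authors' deposited table. Inside its deposited span lie the pseudogene SDHAP2 with 70 and 64 reads and the transcript AC069513.3 with 84 and 87, which adds to the uncertainty from its copies. MUC16 (ENSG00000181143.9, chromosome 19, 8959608 to 9091814, minus strand) was covered by 1 vector read and 4 LKB1 reads, and the ratio of 3.85 had an interval of 0.381 to 189. MUC13 (ENSG00000173702.3, chromosome 3, 124624289 to 124672663, minus strand), a mucin of intestinal and other glandular epithelium, had 1 read in each line, and its ratio of 0.962 had an interval of 0.0123 to 75.5. MUC15 (ENSG00000169550.8, chromosome 11, 26580580 to 26593780, minus strand) had 0 reads in both lines. For these last 3 genes a difference between the lines was not detectable at this depth.

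Levels of different genes were compared per kilobase of merged exons, with lengths from GENCODE 29. The build listed for the reads is hg19, where lengths may differ. For MUC1 the 4.717 kilobases used exceed the whole deposited span of 155158300 to 155162707. The levels, their order and their percentiles are therefore approximate. In the vector line MUC20 was highest at 44.2 reads per kilobase, followed by MUC1 at 6.57, MUC5B at 6.56, MUC5AC at 4.81, MUC4 at 1.92, MUC13 at 0.286 and MUC16 at 0.0228. Along this order the counting intervals of neighbours overlapped, except between MUC20 and MUC1 and between MUC5AC and MUC4. In the LKB1 line the order was MUC20 at 40.5, MUC1 at 22.0, MUC4 at 11.9, MUC13 at 0.286 and MUC16 at 0.0913, and only the intervals of the last pair overlapped. MUC4 therefore stood below both secreted mucins in the vector line, and with LKB1 it stood above the limit of 0.161 for MUC5B and 0.172 for MUC5AC that 3 reads give. All of these levels lay below the median. Among protein-coding genes with reads, the level per kilobase of MUC4 was at percentile 19.2 without and 33.2 with the LKB1 plasmid, that of MUC1 at 27.5 and 39.2, that of MUC5B at 27.5 and that of MUC5AC at 25.3 in the vector line, and that of MUC20 at 49.3 and 47.9.

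**Figure D3:**
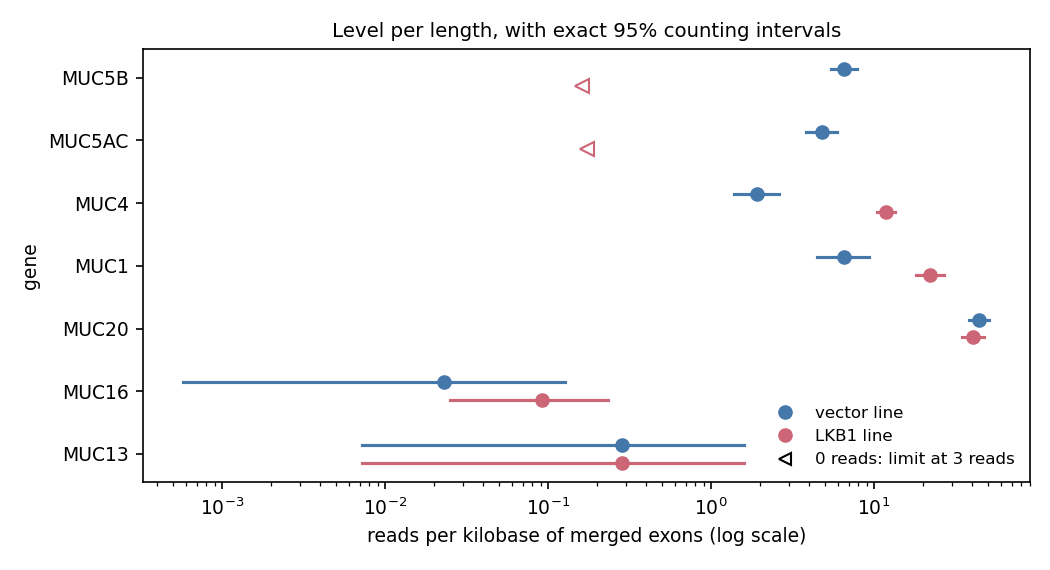
Reads per kilobase of merged exons (horizontal axis, log scale) for 7 mucin genes (vertical axis) in the vector line (blue) and the LKB1 line (red); lines are exact 95% counting intervals, and open triangles mark the limit of 3 reads where a line had none. MUC15, with 0 reads in both lines, is left out, and MUC4 and MUC1 move right while MUC5B and MUC5AC fall to their limits.

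The deposited p-values carry the only trace of the spread between libraries. Under equal depth within a line, the p of each called gene implies 1 coefficient of variation between libraries. How far the authors' test shared its estimate across genes is not given. The implied value therefore need not be the spread of that gene itself. It was 0.119 for MUC1, 0.154 for MUC4, 0.182 for MUC5AC and 0.202 for MUC5B. Among called protein-coding genes with totals within a factor of 1.5, the medians were 0.146 for MUC1, 0.129 for MUC4, 0.160 for MUC5AC and 0.147 for MUC5B. Within these called genes MUC4 lay at percentile 94.4, MUC5B at 98.5, MUC5AC at 82.6 and MUC1 at 20.7. A call requires a small p and so favours a low value, and genes not called have no place in this order.

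Of the members 4 lie in 2 shared loci. Of all genes with at least 40 reads 12.6% passed, so nothing is read from how few neighbours passed. On chromosome 11, 21931 bases separate MUC5AC from MUC5B. Of the 10 nearest protein-coding genes of MUC5B that reached 40 reads, the 9 besides MUC5AC had a median log2 fold of 0.13, with none lower and 2 higher in the authors' deposited table. These were RP11-295K3.1 (log2 1.19, adjusted p = 1.8e-15 in that table) and IFITM10 (log2 0.68), 485491 and 470234 bases away, whose spans overlap on 1 strand, so that their reads may be shared. TOLLIP, named after its values were seen, an adaptor of innate immune signalling 12195 bases beyond MUC5B, was covered by 1100 vector reads and 1252 LKB1 reads (log2 0.13). Of the other gel-forming mucin genes in the cluster, named after their values were seen, MUC2 had 18 and 10 reads (log2 -0.89, adjusted p = 0.965 in the authors' deposited table) and MUC6 had 1 and 0.

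On chromosome 3, 5641 bases separate MUC20 from MUC4, which is read in the opposite direction, and of the pair MUC4 rose. The 9 neighbours of MUC4 besides MUC20 had a median log2 fold of 0.08, with none higher and 1 lower. That gene was FAM43A, 1063874 bases away, with 175 and 43 reads (log2 -2.07, adjusted p = 1.08e-12 in the authors' deposited table). None of the 10 neighbours of MUC1 passed, beside 12.6% of all genes with at least 40 reads, and these neighbours ran from -0.55 to 0.22. The smallest p among them belonged to FAM189B (log2 -0.43, adjusted p = 0.122 in the authors' deposited table). Beside the members with fewer than 10 reads, 1 of 10 neighbours was higher at MUC13 and 1 of 10 at MUC15, each with a median log2 fold of 0.15. At MUC16 2 of 10 were lower, with a median of -0.22. The myosin kinase gene MYLK, 1021111 bases from MUC13, rose by 1.14 on the log2 scale. The neurotrophin gene BDNF, 1082660 bases from MUC15, rose by 0.52. The myosin gene MYO1F, 317301 bases from MUC16, fell by 4.07, and ZNF699, 313137 bases away, fell by 1.85. Their adjusted p in the authors' deposited table were 6e-13, 0.0312, 2.55e-21 and 5.63e-10.

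**Figure D4:**
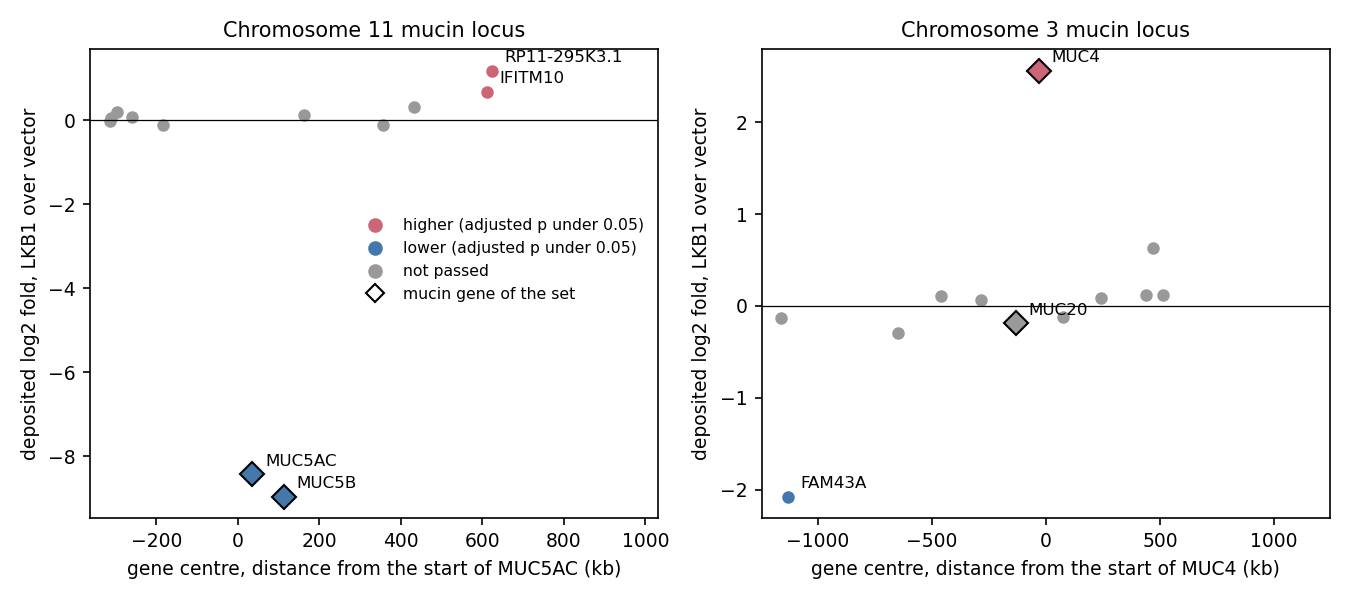
Deposited log2 fold of LKB1 over vector (vertical axis) for the mucin genes (diamonds) and their neighbours with at least 40 reads (circles), by distance of the gene's centre from the start of MUC5AC (left) or MUC4 (right) in kilobases; red is higher and blue lower at an adjusted p under 0.05, grey not passed. MUC5AC and MUC5B, whose fitted folds depend on the prior count, and MUC4 stand away from the neighbours, most of which lie near 0.

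Promoters of MUC4 and MUC1, the genes that rose, are given for the region from 250 bases before to 50 bases after the transcription start, from RefSeq on GRCh38.p14. The RefSeq table held MUC1, MUC4, MUC13 and MUC16 and did not match MUC5AC, MUC5B, MUC15 and MUC20. Capitals mark matches on either strand to any of 9 motifs. Core promoter motifs were the TBP box TATAAA and the box for SP factors GGGCGG. Motifs of regulated factors were TTCNNNGAA for STAT proteins, TGTTTAC for forkhead proteins, CCGGAA for most ETS proteins with CCGGAT for SPDEF, TGACGTCA for CREB, TGANTCA for JUN and FOS, and CACGTG for helix-loop-helix proteins. The sequences run 5′ to 3′ on the gene's strand, which is minus for both, at chr3:195811880-195812179 for MUC4 and chr1:155192866-155193165 for MUC1, the first of 2 starts listed.
MUC4: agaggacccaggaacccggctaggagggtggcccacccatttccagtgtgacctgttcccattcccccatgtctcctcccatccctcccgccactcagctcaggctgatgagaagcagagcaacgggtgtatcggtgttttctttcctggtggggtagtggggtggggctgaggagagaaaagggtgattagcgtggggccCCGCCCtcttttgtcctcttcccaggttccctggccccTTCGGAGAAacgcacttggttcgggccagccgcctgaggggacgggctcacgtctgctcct
MUC1: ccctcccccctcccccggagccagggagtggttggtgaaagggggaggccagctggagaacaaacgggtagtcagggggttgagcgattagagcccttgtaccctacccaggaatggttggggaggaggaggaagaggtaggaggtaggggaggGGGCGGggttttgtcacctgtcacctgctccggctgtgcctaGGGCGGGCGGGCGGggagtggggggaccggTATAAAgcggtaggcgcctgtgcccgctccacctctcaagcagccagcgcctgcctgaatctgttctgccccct
Both held the SP box, once in MUC4 and 4 times in MUC1, where 3 of the matches overlap, and 45.0% of all 35116 promoters of this length hold it. MUC4 also held 1 STAT match, whose first base lies 11 bases before the start and which 7.66% of promoters hold. MUC1 held a TBP box with its first base 24 bases before the start, which 11.5% of promoters hold. These are matches of letters only.

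Other mucin genes and mucin-like glycoproteins were few. Of 15 measured, 4 had at least 40 reads, of which 1 rose and 1 fell in the authors' deposited table, at a median log2 fold of 0.09. Among all 14387 genes with at least 40 reads 12.6% passed, 830 higher (5.77%) and 987 lower (6.86%), and the median was -0.02. PODXL, the sialomucin podocalyxin, rose by 0.95 (adjusted p = 3.59e-09 in the authors' deposited table). MCAM, an adhesion molecule that also carries a mucin symbol, fell by 0.74 on the log2 scale (adjusted p = 1.67e-05). CD164, a sialomucin of the endosomal system, had 1255 and 1691 reads (log2 0.37, adjusted p = 0.157) and MUC19 had 22 and 20. Below 40 reads OVGP1, the oviductal glycoprotein, had 20 and 3 reads, and the LKB1 to vector ratio of 0.144 had an interval of 0.0275 to 0.486 from counting error (adjusted p = 0.0408 in the authors' deposited table).

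Genes of the secretory and goblet cell programme were measured beside MUC5AC and MUC5B. Of 9 with at least 40 reads 3 fell and none rose, at a median log2 fold of -0.43. These were the ETS factor SPDEF (816 to 22 reads), which drives goblet cell differentiation, the forkhead factor FOXA2 (396 to 28) and AGR2 (137 to 8), a protein disulfide isomerase needed for mucin folding. Their log2 folds were -5.25, -3.87 and -4.11, with adjusted p of 3.35e-76, 6.67e-36 and 1.68e-17 in the authors' deposited table. Of other goblet cell products, SPINK4 had 126 vector and 220 LKB1 reads, the opposite direction (log2 0.75, adjusted p = 0.0813 in the authors' deposited table), and FCGBP had 98 and 122 (adjusted p = 1). TFF1, TFF2 and TFF3 had 0 to 3 reads in either line and CLCA1 had 3 and 0. These products were chosen after their values were seen. These genes share the comparison with the mucins, and no gene can be tied to another by it.

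Of 25 factors described for mucin promoters with at least 40 reads, 1 rose and 3 fell, at a median log2 fold of -0.05. Of all genes with at least 40 reads 12.6% passed, 5.77% higher and 6.86% lower. The retinoic acid receptor genes RARB (194 to 7 reads, log2 -4.80) and RARG (278 to 176, log2 -0.71) and the early response factor EGR1 (438 to 105, log2 -2.11) fell, and the aryl hydrocarbon receptor AHR rose by 0.60 (1625 to 2556 reads), with adjusted p of 2.78e-30, 0.00995, 1.25e-19 and 0.0018 in the authors' deposited table. STAT3, named after its values were seen, had 2200 and 2208 reads (log2 -0.05, adjusted p = 1).

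Partners of the membrane mucins fell in 2 of 21 members with at least 40 reads and rose in none, at a median log2 fold of -0.01. NRG1, a ligand of the ERBB receptors, had 865 and 347 reads (log2 -1.37, adjusted p = 1.4e-13 in the authors' deposited table), and moesin MSN, which links membrane proteins to actin, was at -0.55 (adjusted p = 0.00314). The direct partners did not pass and were named after their values were seen: ERBB2, the partner of MUC4, had 1104 and 1364 reads (log2 0.25, adjusted p = 0.573), mesothelin MSLN, the ligand of MUC16, had 2367 and 2242 (log2 -0.13, adjusted p = 1) and MET, the partner of MUC20, was at 0.40 (adjusted p = 0.0666). The deposited span of MSLN runs from 693262 to 818865 on chromosome 16, against 2.56 kilobases of merged exons. Its reads may therefore include those of other genes. With that limit, MSLN was read in both lines, whereas MUC16 had 1 and 4 reads.

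Among 7 sheddases and proteases that release the outer part of membrane mucins, ADAM10 rose by 0.54 (adjusted p = 0.00529 in the authors' deposited table) and MMP14 fell by 0.67 on the log2 scale (adjusted p = 5.57e-05), at a median of -0.02. Of 18 enzymes and transporters that build and extend O-glycans, with the initiating GALNT genes left out, 3 rose and none fell, at a median log2 fold of -0.02. For both lists the share over all genes with at least 40 reads was 5.77% higher and 6.86% lower. The sialyltransferase ST6GALNAC2 had 22 and 79 reads (log2 1.78, adjusted p = 0.00221), the Golgi transporter of UDP-galactose SLC35A2 had 304 and 535 (0.76, adjusted p = 0.00131) and the core 1 synthase C1GALT1 had 465 and 707 (0.55, adjusted p = 0.0218 in the authors' deposited table). Below 40 reads the fucosyltransferase gene FUT2 had 1 and 20 reads, and the ratio of 19.2 had an interval of 3.08 to 797 from counting error (adjusted p = 0.00636 in the authors' deposited table).

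**Figure D5:**
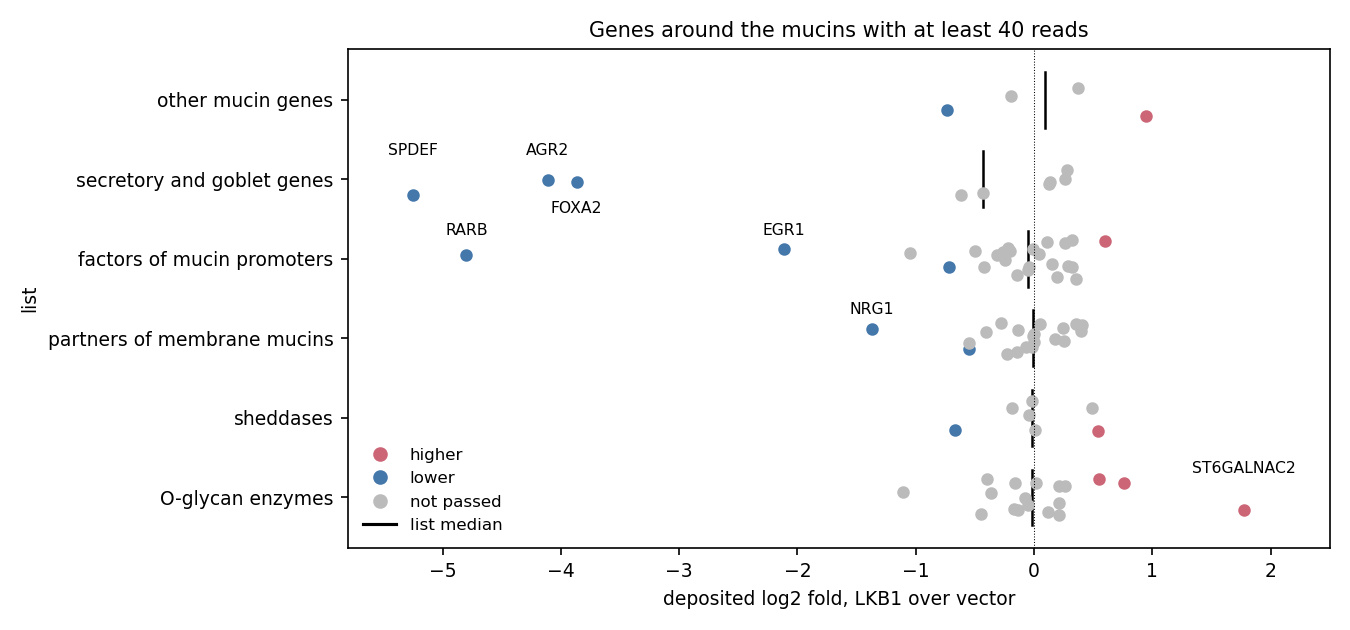
Deposited log2 fold of LKB1 over vector (horizontal axis) for genes with at least 40 reads in 6 lists around the mucins (vertical axis; points are spread vertically for legibility); red rose, blue fell and grey did not pass at an adjusted p under 0.05, and black bars are list medians. The medians lie between -0.43 and 0.09, and SPDEF, AGR2, FOXA2 and RARB stand far to the left.

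Markers of other cell types were looked at in the same comparison, in which 12.6% of all genes with at least 40 reads passed. Of 8 endothelial markers with at least 40 reads 7 were lower and none higher in the authors' deposited table, at a median log2 fold of -3.04 and with 2296 vector and 626 LKB1 reads in sum. Fibroblast markers had 458 and 420 summed reads, with 2 of 4 lower and DCN at 0, and leukocyte markers had 2357 and 1746, with 1 of 3 higher, 1 lower and MS4A1 at 0. Melanocyte markers had 705 and 297, of which MITF gave 662 and 275 and was 1 of 2 to pass. Goblet and gastric markers had 232 and 344, with none of 2 passing and GKN1 at 0. Their part in the fall of MUC5AC and MUC5B and in the rise of MUC4 and MUC1 was not tested. Of 9 luminal and epithelial markers CLDN4 rose by 0.69 and none was called lower. CDH1 stood at a log2 fold of -0.69 but did not pass (adjusted p = 0.346 in the authors' deposited table).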

How the data were processed

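Stranded libraries of total RNA from 2 stable MDA-MB-231 lines, 2 per line, were compared by the authors. Tools listed in the submitters' processing notes, without roles, are edgeR 2.6.0, TopHat2 2.0.6 and CASAVA 1.8.2, with the build hg19. For the counting step, annotation and filters, nothing is stated (not given in the sources used here). By its column names, per the file headers, the deposited table holds for each gene a fold (a ratio), its log2 and a p-value with its adjusted p-value, and no value per library. The planned count test could therefore not be run, and the authors' adjusted p under 0.05 was the call. It is a Benjamini-Hochberg adjustment over all genes, to within 1.9e-06.

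Whole read totals per line were recovered from the log2 fold with prior counts of 0.255 (LKB1) and 0.245 (vector), read from the folds of genes with 1 read, within a relative tolerance of 2e-09 and below 3000 reads. This resolved 27305 of 28242 genes with reads (96.7%); the other 937 were taken as above every read minimum. The recovery and the assumed-variation test were tested on simulated data. Library totals are unknown. Ratios were divided by the depth ratio of 1.04 and carry exact binomial intervals, levels per kilobase exact Poisson intervals. Alternatives were a threshold of 0.01, adjustment over genes with at least 40 reads, ratios with no prior, another centring, and an exact negative binomial test of the totals at an assumed coefficient of variation of 0.2 or 0.4. Exon lengths and transcripts came from GENCODE 29, promoters from RefSeq. Python 3.11.15, numpy 2.4.6, pandas 2.3.3 and scipy 1.17.1 were used.

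Members and lists were chosen with earlier results of these data known. Named genes were STK11, all members, other mucin genes with at least 40 reads, up to 4 called genes of smallest p per list, and the neighbour of smallest p of each member. Names outside this rule were chosen after their values were seen.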

Additional observations from a re-analysis of the deposited data

How the results depend on the processing

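No replicate could be left out, and no paired analysis was possible because the table has no values per library and the titles share no replicate number. Ratios with no prior and other centring changed the folds and left the deposited p in place, and no mucin gene changed direction. Adjustment over fewer genes and the assumed variation changed p alone. There MUC1 lost its call with a variation of 0.4 assumed (adjusted p = 0.532 over 27305 genes), so the number of mucin genes called higher was 1 there, MUC4 (adjusted p = 0.0139), and 2 under the other settings. The number called lower was 2 in every setting run. With a variation of 0.2 assumed, 911 of the 27305 genes with recovered totals were called, and with 0.4, 279. The 2007 called as deposited were counted over all 34675 genes, so these numbers differ in gene set as well. STK11, at a log2 fold of 0.62, lost its call with 0.2 (adjusted p = 0.449) and with 0.4 (adjusted p = 1). Centring on genes with at least 200 reads moved folds by 0.0049. Totals of 1 to 4 reads limit MUC13 and MUC16.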
